A study of Mus musculus with 54 samples.

Results

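Chromatin accessibility was examined around the genes of primed pluripotency Fgf5, Otx2, Pou3f1, Zic2, Foxd3, Oct6, Sox4 and Sox11 in mouse embryonic stem (ES) cells. Oct6 is another name of Pou3f1 (RefSeq lists it as a synonym), so the 8 names stood for 7 genes of the 21938 annotated protein-coding genes. The genes were listed as ones that rise when cells leave naive pluripotency. The list uses no accessibility value in its rule, but it was drawn up with earlier results of these data known. A peak belonged to a gene when its centre lay within 50 kb of one of the gene's transcription start sites (TSSs) in GENCODE release M21, which selected 64 of the 113737 merged ATAC-seq peaks of the series. Of these 64 peaks, 11 lay within 1 kb of a TSS of the gene itself, 7 lay within 1 kb of a TSS of another gene, and 46 were distal, which means more than 1 kb from every annotated TSS. The whole list held 89794 distal peaks.

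ATAC-seq uses the transposase Tn5 to cut and tag open DNA. All 54 samples were ZHBTc4 ES cells, whose endogenous Pou5f1 gene (encoding OCT4) is shut off by doxycycline (dox), and all carried mCherry-OCT4-AID, an OCT4 fusion degraded upon addition of auxin (IAA), and the cell cycle reporter YPet-MD. Every sample, controls included, had received 1 ug/ml dox, so that the constitutively expressed fusion was the OCT4 of these cells. According to the paper, the fusion was expressed at low levels and carried an amino acid change in OCT4 that the paper considers inconsequential. A first set of 22 samples had 26 hr of dox with or without 2 hr of 500 nM IAA and was sorted into early G1, late G1, S and late S/G2, with 2 or 3 samples in each of 8 groups. A set of 16 samples had 31 hr of dox with or without 2.5 hr of IAA, followed by 4.5 hr of washout, and was sorted into the same phases with 2 samples a group. A time course of 16 unsorted samples had 34 hr of dox and IAA for 0, 0.5, 1, 2, 3, 4, 6 or 10 hr, with 2 samples a group. The line was obtained by lentiviral transduction of the fusion, the ubiquitin ligase Tir1 and the reporter, followed by sorting of the cells that lost mCherry with IAA, and it was grown in serum with LIF and the inhibitors CHIR99021 and PD184352.

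The peaks were deposited as a single list merged over all these conditions, with a start and an end for each region but no count or signal. A region was thus either in the list or not, no value belonged to a phase or a treatment, and no comparison between phases or treatments could be made for these genes. Sequencing depth is unknown here. Merging keeps a region found in any of the joined peak sets, so the number and width of regions can depend on depth and on how many sets were joined. This was not examined. Expression was not measured in these files, so the level of each gene, and with it the label of the group, could not be checked here.

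Mouse ES cells in LIF and the 2 inhibitors are held in a naive state that resembles the epiblast before implantation. On withdrawal of these signals they pass through a formative to a primed state, in which naive factors fall and factors of the post-implantation epiblast rise. Fgf5 encodes a secreted fibroblast growth factor and is the classical marker of this change. OTX2, a homeobox protein, and OCT6, the POU protein encoded by Pou3f1, are transcription factors of the primed state, OTX2 being known to direct OCT4 to new enhancers. ZIC2 is a zinc finger protein and FOXD3 a forkhead protein, and both have been studied at enhancers of ES cells during this transition. SOX4 and SOX11 are related HMG box proteins best known from progenitor cells, especially of the nervous system.

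The sequences of chosen distal peaks are given first, to show the DNA of the regions named below. They show the central 200 bases of the 3 distal peaks of Fgf5 and of the widest distal peak of each other gene whose window touched no annotated exon. The upstream peak closest to Pou3f1 and the Sox4 peak that held an octamer were added after their values were seen. All are the + strand of GRCm38.p6 (RefSeq), with matches to the motifs searched in capitals and all other bases in lower case. Distances run from the peak centre to the closest TSS of the gene, with a plus sign for downstream in the direction of transcription.
Fgf5 +1.60 kb, chr5:98255910-98256109, intron 1: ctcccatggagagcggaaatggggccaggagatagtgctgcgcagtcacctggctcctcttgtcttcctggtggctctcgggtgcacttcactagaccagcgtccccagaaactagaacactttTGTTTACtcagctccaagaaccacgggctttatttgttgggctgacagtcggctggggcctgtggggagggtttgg
Fgf5 +19.82 kb, chr5:98274130-98274329, intron 2: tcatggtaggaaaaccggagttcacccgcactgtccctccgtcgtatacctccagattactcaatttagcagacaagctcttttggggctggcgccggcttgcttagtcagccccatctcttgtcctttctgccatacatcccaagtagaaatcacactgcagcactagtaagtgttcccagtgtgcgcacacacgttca
Fgf5 +30.04 kb, chr5:98284356-98284555, intergenic: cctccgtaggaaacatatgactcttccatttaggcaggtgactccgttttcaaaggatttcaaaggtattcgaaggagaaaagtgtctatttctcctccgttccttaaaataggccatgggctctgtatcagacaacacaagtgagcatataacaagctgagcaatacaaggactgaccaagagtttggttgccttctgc
Otx2 -27.39 kb, chr14:48701106-48701305, intron of Otx2os1: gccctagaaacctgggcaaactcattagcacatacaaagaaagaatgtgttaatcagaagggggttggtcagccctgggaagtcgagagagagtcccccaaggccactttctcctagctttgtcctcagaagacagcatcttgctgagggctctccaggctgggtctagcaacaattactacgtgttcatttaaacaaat
Pou3f1 +47.13 kb, chr4:124703842-124704041, intron of Fhl3: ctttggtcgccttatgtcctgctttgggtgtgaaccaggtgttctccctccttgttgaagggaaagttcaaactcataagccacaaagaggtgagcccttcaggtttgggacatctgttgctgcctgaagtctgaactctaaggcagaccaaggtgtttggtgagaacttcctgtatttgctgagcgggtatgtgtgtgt
Pou3f1 -10.09 kb, chr4:124646621-124646820, intron of Gm2164: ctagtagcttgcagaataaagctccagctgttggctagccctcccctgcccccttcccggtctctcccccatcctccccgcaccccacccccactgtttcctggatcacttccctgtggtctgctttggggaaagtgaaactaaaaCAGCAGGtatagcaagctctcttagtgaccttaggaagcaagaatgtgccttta
Zic2 -42.83 kb, chr14:122432501-122432700, intergenic: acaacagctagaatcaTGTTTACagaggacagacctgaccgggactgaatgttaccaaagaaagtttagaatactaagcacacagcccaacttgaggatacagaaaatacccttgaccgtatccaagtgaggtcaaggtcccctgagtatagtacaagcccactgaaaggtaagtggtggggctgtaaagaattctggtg
Foxd3 -5.45 kb, chr4:99650750-99650949, intergenic: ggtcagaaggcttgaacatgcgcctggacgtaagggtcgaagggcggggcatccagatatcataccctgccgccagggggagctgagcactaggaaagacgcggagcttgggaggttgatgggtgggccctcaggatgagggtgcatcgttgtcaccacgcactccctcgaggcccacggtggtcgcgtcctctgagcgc
Sox4 -5.20 kb, chr13:28958813-28959012, intergenic: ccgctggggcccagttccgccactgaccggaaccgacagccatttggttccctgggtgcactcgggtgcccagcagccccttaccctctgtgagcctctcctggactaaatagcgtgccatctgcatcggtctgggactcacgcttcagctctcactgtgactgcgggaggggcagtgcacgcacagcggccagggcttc
Sox4 -27.16 kb, chr13:28980768-28980967, intergenic: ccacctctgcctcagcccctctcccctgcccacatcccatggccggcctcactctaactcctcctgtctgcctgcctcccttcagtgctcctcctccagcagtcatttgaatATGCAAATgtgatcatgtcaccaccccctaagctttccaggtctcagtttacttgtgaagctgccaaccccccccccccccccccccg
Sox11 +30.60 kb, chr12:27311877-27312076, intergenic: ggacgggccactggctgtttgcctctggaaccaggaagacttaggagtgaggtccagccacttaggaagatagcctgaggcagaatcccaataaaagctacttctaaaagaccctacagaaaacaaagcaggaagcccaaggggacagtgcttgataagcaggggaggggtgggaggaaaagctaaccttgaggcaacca
The capitals mark TGTTTAC, the forkhead (FOX) core, in the Fgf5 +1.60 kb and Zic2 -42.83 kb windows. They mark ATGCAAAT, the octamer bound by POU proteins (OCT), at Sox4 -27.16 kb, and CAGCAGG, the reverse strand of the ZIC core CCTGCTG, at Pou3f1 -10.09 kb. The other 7 windows held no match. Motifs were counted further on in 300 bases, so some counted matches lie outside these 200.

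All 7 genes had a peak at an own TSS. For comparison, 70.8% of protein-coding genes did (15535 of 21938). The count rests on the 1 kb limit, since with 500 bp it was 5 of 7, against 67.2% of coding genes. Foxd3 and Sox4, whose wide peaks were centred 729 and 735 bp from the TSS, were the 2 that then had none. Each of the 7 genes had an own TSS inside a peak, as did 67.1% of coding genes. In distal peaks the genes ranged from 2 for Sox11 and 3 for Fgf5, through 7 each for Otx2, Zic2 and Sox4, to 10 each for Pou3f1 and Foxd3. Their median was 7, beside a median of 4 over all protein-coding genes and of 5 over those with a TSS peak. At least 7 distal peaks were found for 5 of the 7 genes, for 30.9% of protein-coding genes and for 38% of those with a TSS peak. Because 7 is the median of the genes themselves, at least 4 of them had to reach it. Sox11 and Fgf5 stood below the median of that distribution, with 80.4% and 69.9% of coding genes having as many or more, and Pou3f1 and Foxd3 stood above it, with 14.03%.

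**Figure D1:**
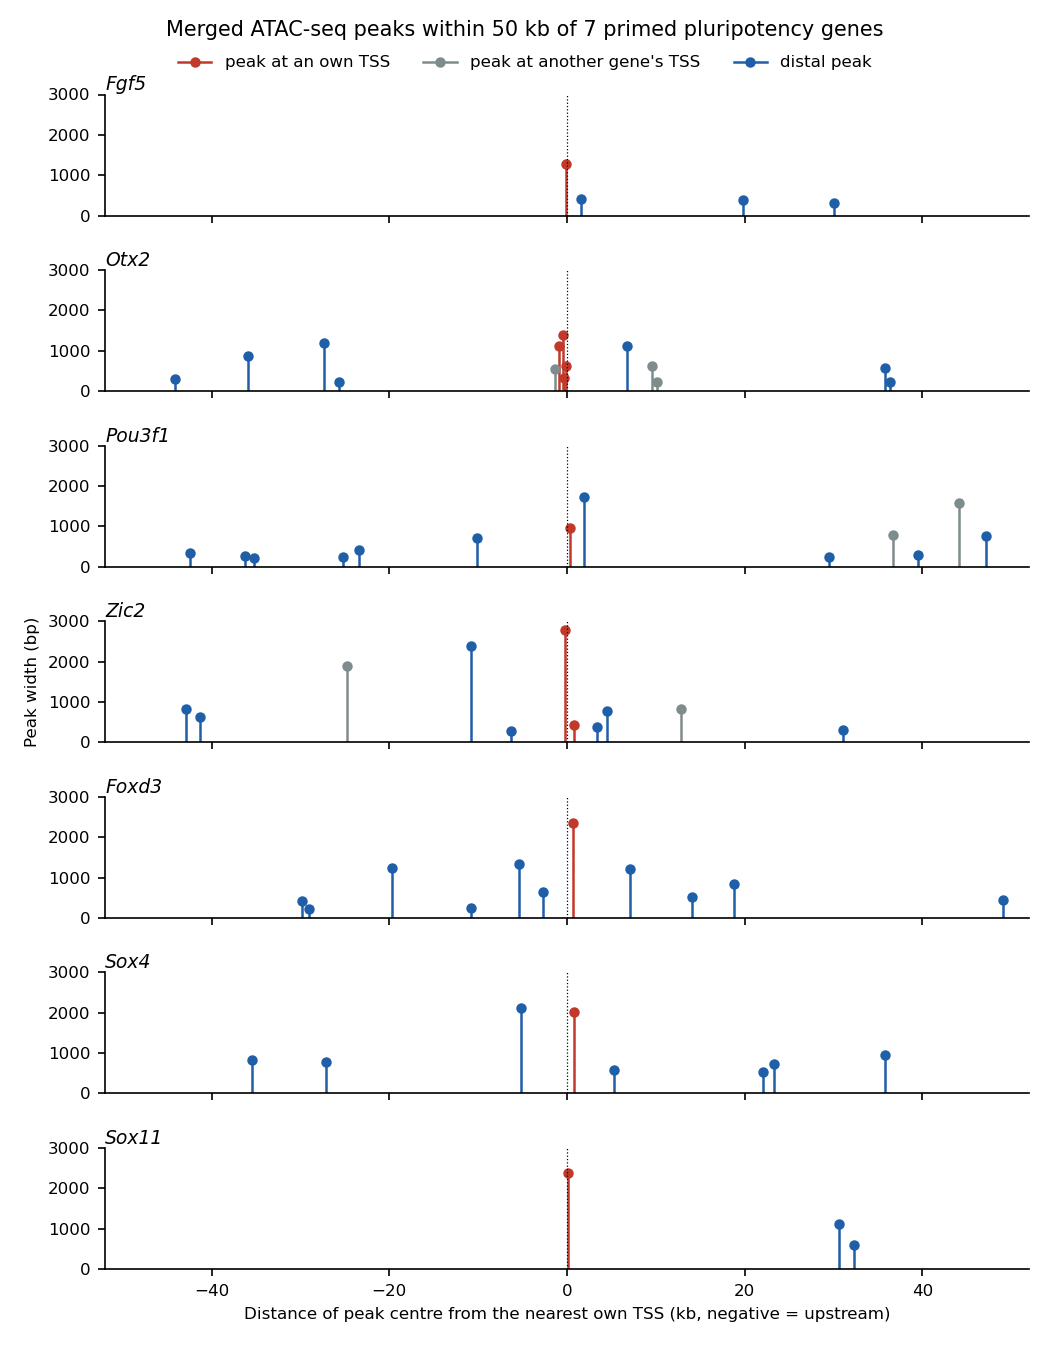
Width in bp (vertical axis, from 0) of every merged peak within 50 kb of the 7 genes against the distance of its centre from the closest TSS of the gene in kb (horizontal axis, upstream to the left), with peaks at an own TSS in red, at the TSS of another gene in grey and distal peaks in blue. Fgf5 and Sox11 have no peak upstream of their TSS peak, whereas the other 5 genes have distal peaks on both sides.

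Fgf5, the secreted ligand of the group, lies on the + strand of chromosome 5 (ENSMUSG00000029337, chr5:98254184-98277030) with 2 annotated TSSs and 3 exons. Its TSS peak spanned chr5:98253715-98254985, a width of 1271 bp that covered both TSSs and extended 697 bp upstream and 573 bp downstream of the one closer to its centre. This is an ordinary width, since 44.3% of coding genes with a TSS peak had one as wide or wider. All 3 distal peaks lay downstream. The closest, at +1.60 kb, was 415 bp wide and lay in intron 1. The one at +19.82 kb was 387 bp wide and lay in intron 2, and the one at +30.04 kb was 321 bp wide and lay 7.27 kb past the 3' end of the gene. For all 3, Fgf5 was the closest coding gene.

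No peak was listed in the 49.5 kb upstream of the Fgf5 TSS peak within the window, and the next peak on that side lay 58.9 kb upstream of the gene's TSSs. Downstream of the peak at +30.04 kb, the next one was 74.9 kb from the TSSs. Peaks covered 7.02% of the Fgf5 gene body, the lowest share of the 7 genes. Fgf5 is a well-studied case of a gene whose enhancers become active in the primed state. Published coordinates of those enhancers were not used here, so the 3 peaks are given by their distance and none carries an enhancer name.

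Otx2, on the - strand of chromosome 14 (ENSMUSG00000021848, chr14:48657677-48673819), had 10 annotated TSSs and 4 peaks within 1 kb of one of them. These were 1397, 1112, 618 and 335 bp wide. The widest, chr14:48673619-48675015, lay at the most upstream start of the gene and also held TSSs of the antisense transcript Otx2os1 and of Gm49154, so that the start of Otx2 and of its divergent neighbours cannot be told apart in it. A further 3 peaks of the window lay at TSSs of non-coding genes, of which 2 were at Gm23469 and 1 at Otx2os1. Upstream, 4 distal peaks lay in introns of Otx2os1, between -25.67 and -44.16 kb, with the widest (1190 bp) at -27.39 kb. Downstream, a peak of 1121 bp lay at +6.72 kb, and a pair of 564 and 217 bp lay at +35.83 and +36.31 kb. Otx2 was the closest coding gene for all 7 distal peaks, and the next coding TSS, that of Tmem260, was 155.9 kb away.

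Pou3f1 (Oct6) is a single-exon gene on the + strand of chromosome 4 (ENSMUSG00000090125, chr4:124656807-124660655). Its only TSS peak measured 964 bp (chr4:124656680-124657643), the lowest value when the widest TSS peak of each of the 7 genes is compared. As many as 75.9% of coding genes with a TSS peak had one as wide or wider. A second peak of 1735 bp (chr4:124657837-124659571), centred at +1.90 kb, lay inside the gene itself and was counted as distal by the distance rule. Together the 2 peaks covered 66.8% of the gene body. The first of them also held a TSS of Gm2164, an antisense transcript whose introns hosted all 6 upstream distal peaks.

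Only 2 of the 10 distal peaks of Pou3f1 were closer to its TSS than to that of any other coding gene, namely the one in the gene body and one of 707 bp at -10.09 kb. The 5 peaks from -23.39 to -42.45 kb, all between 212 and 415 bp wide, were closest to 3100002H09Rik, and the 3 peaks at +29.44, +39.49 and +47.13 kb were closest to Utp11 or Fhl3. The window also held the TSS peaks of Utp11 (782 bp) and Fhl3 (1583 bp). The high count of Pou3f1 thus came in a window that it shared with 3 other coding genes.

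Zic2, on the + strand of chromosome 14 (ENSMUSG00000061524, chr14:122475435-122479852), had the widest TSS peak of the group. It measured 2771 bp (chr14:122473816-122476586), reached 1619 bp upstream and 1151 bp downstream of the TSS, and was matched or exceeded by 0.431% of coding genes with a TSS peak. It also held a TSS of 2610035F20Rik. A second peak, of 419 bp, lay 0.76 kb past an own TSS, inside the gene.

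Of the 7 distal peaks near Zic2, 2 were closest to Zic2 itself, at +3.39 kb (367 bp) and +4.46 kb (765 bp). The largest, 2377 bp at -10.81 kb (chr14:122463435-122465811), lay over an exon of Zic5, the paralogue whose TSS is 9.8 kb from Zic2. Its centre was 1054 bp from a Zic5 TSS and so just outside the 1 kb limit, although that TSS lay inside the peak. It was the single one of the 46 distal peaks with a TSS inside, against 20 in the whole list, and without it Zic2 had 6 distal peaks and the group 45. The remaining peaks were closest to Zic5, Gm5089 or Gm10837, and TSS peaks of the latter 2 genes (1893 and 827 bp) lay in the window too.

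Foxd3, a single-exon gene on the + strand of chromosome 4 (ENSMUSG00000067261, chr4:99656299-99658622), was covered by its TSS peak over 82.2% of its length, the largest share of the group. The peak measured 2362 bp (chr4:99655847-99658208), with 1909 bp of it downstream of the TSS, and 1.71% of coding genes with a TSS peak had one as wide or wider. Its 10 distal peaks were 6 upstream and 4 downstream, and for 9 of them Foxd3 was the closest coding gene. The 2 closest upstream, at -2.69 kb (632 bp) and -5.45 kb (1337 bp), had ratios of observed to expected CpG of 0.915 and 0.757. A ratio above 0.6 is a usual mark of CpG islands. Downstream, the peaks at +7.13 kb (1199 bp), +14.11 kb, +18.83 kb and +49.11 kb lay in introns of the non-coding gene Gm12682.

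Sox4 and Sox11, paralogues with a single exon each, both had a wide TSS peak and differed in the number of distal peaks. The TSS peak of Sox4 (ENSMUSG00000076431, chr13:28948919-28953713, - strand) was 2012 bp wide, with 270 bp upstream and 1741 bp downstream of the TSS, and that of Sox11 (ENSMUSG00000063632, chr12:27334264-27342574, - strand) was 2381 bp wide, with 1097 bp upstream and 1283 bp downstream. Widths as large or larger were found for 5.44% and 1.65% of coding genes with a TSS peak. Sox4 had 7 distal peaks, 3 upstream and 4 downstream, the widest being 2109 bp at -5.20 kb (chr13:28957859-28959967). Its closest downstream peak was 572 bp wide at +5.27 kb. Sox11 had 2, both downstream, at +30.60 kb (1120 bp) and +32.36 kb (596 bp), and 48.9 kb upstream of its TSS peak held none within the window. Both genes were the closest coding gene for all of their distal peaks.

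**Figure D2:**
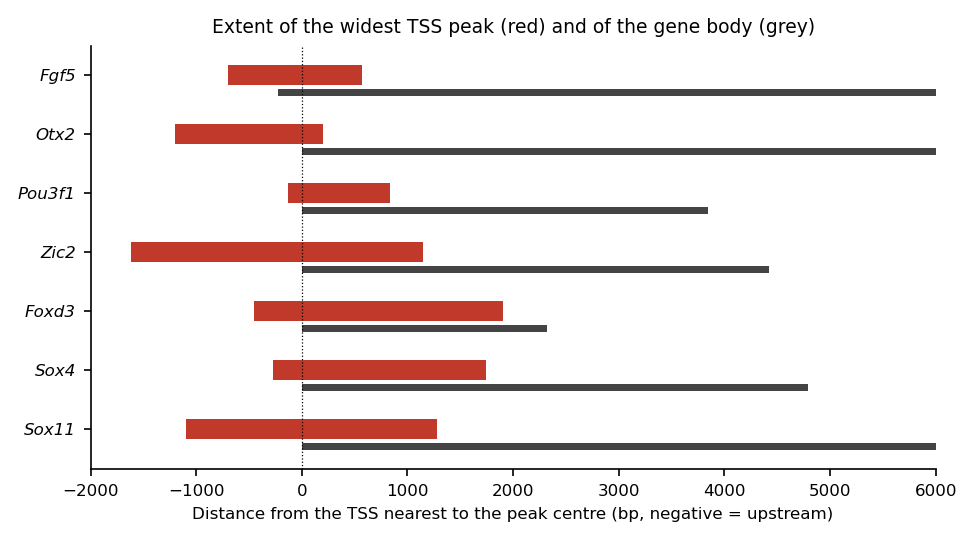
Extent of the widest TSS peak of each gene (red) relative to the TSS closest to the peak centre, in bp with upstream to the left, and of the gene body (grey, leaving the plot on the right for Fgf5, Otx2 and Sox11). The peaks of Foxd3 and Sox4 lie mostly over the gene, with 1909 and 1741 bp downstream of the TSS, and that of Otx2 lies mostly upstream, with 1196 bp before it.

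The median of the widest TSS peak was 2012 bp over the 7 genes, against 1219 bp over the 15535 coding genes with a TSS peak. A TSS peak of at least 2012 bp was found for 4 of the 7 genes (Zic2, Sox11, Foxd3 and Sox4) and for 5.44% of coding genes with a TSS peak. The threshold is the median of the 7 genes themselves, so that 4 of 7 had to reach it, and no test was made. With the 500 bp limit, which leaves out Foxd3 and Sox4, the medians were 1397 bp over 5 genes and 1208 bp over coding genes. The other 3 genes, Fgf5, Otx2 and Pou3f1, had widths of 1271, 1397 and 964 bp, close to the general median. GC content of the widest TSS peaks ran from 59.3% at Otx2 to 70.7% at Pou3f1. Their CpG ratio ran from 0.522 at Otx2 to 0.951 at Sox11 and was above 0.6 in all but Otx2.

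**Figure D3:**
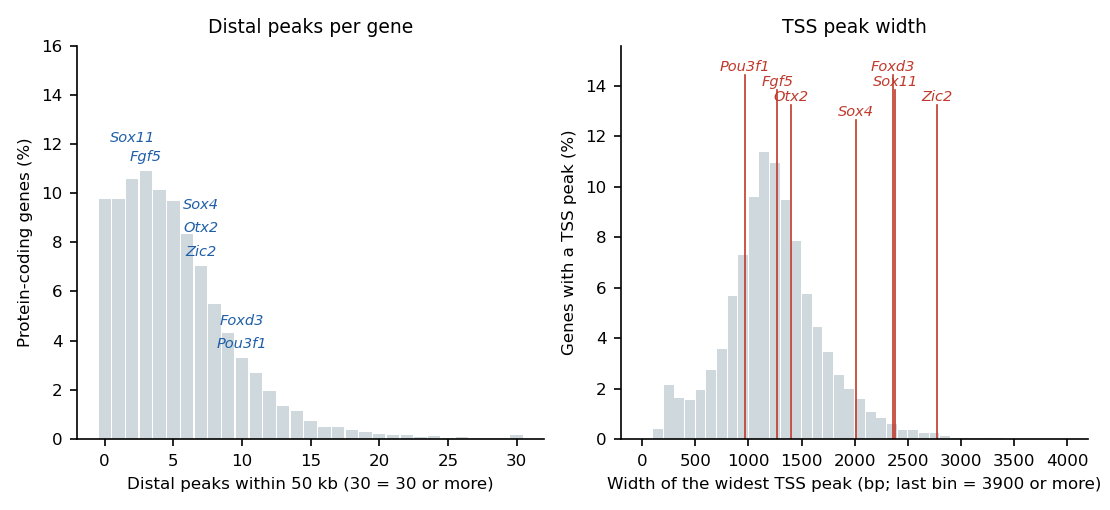
Left, share of the 21938 protein-coding genes (percent) by number of distal peaks within 50 kb, with the names of the 7 genes above their count. Right, share of the 15535 genes with a TSS peak (percent) by width of the widest one in bins of 100 bp, with a red line at each of the 7 genes. Zic2, Sox11, Foxd3 and Sox4 lie in the right tail at 2012 bp or more, and Fgf5, Otx2 and Pou3f1 lie in the bulk.

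Among the 46 distal peaks, 23 lay upstream and 23 downstream. The centre lay in an intron for 19 (41.3%, Wilson 95% interval 28.3 to 55.7%), in an exon for 2 and between genes for 25 (54.3%, 40.2 to 67.8%). The intervals cover counting error only, and peaks around 1 gene are not independent of each other. The same shares over all distal peaks are not given here, so these shares cannot be read as particular to these genes. By distance from the TSS, 11 peaks lay within 10 kb, 7 between 10 and 20 kb, 10 between 20 and 30 kb, 12 between 30 and 40 kb and 6 between 40 and 50 kb. The gene was the closest coding gene for 32 of 46 peaks (69.6%, 55.2 to 80.9%), and 13 of the 14 exceptions belonged to Pou3f1 and Zic2. This share, too, is given without its counterpart over the windows of all coding genes.

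The distal peaks had a median width of 568 bp and ranged from 211 to 2377 bp, against a median of 380 bp and quartiles of 251 and 642 bp over all 89794 distal peaks. At least 1000 bp were reached by 9 of 46 (19.6%, 10.7 to 33.2%) and by 7.28% of all distal peaks. These 9 were spread over 6 genes, with 3 at Foxd3, 2 at Otx2 and 1 each at Pou3f1, Zic2, Sox4 and Sox11. Fgf5 had none, its widest distal peak measuring 415 bp. Sox4 had no narrow ones, its 7 ranging from 529 to 2109 bp, whereas Pou3f1 had a median of 312 bp.

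A CpG ratio above 0.6 was found in 4 of 46 distal peaks (8.70%, 3.43 to 20.3%) and in 3.48% of all. Apart from the 2 at Foxd3 they were the peak inside Pou3f1 (0.920) and the peak over Zic5 (0.819), both centred in an exon. The median ratio of the distal peaks was 0.259 and their median GC content 50.7%, against 0.210 and 47.7% over all distal peaks. The 11 peaks at own TSSs had a median ratio of 0.807.

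**Figure D4:**
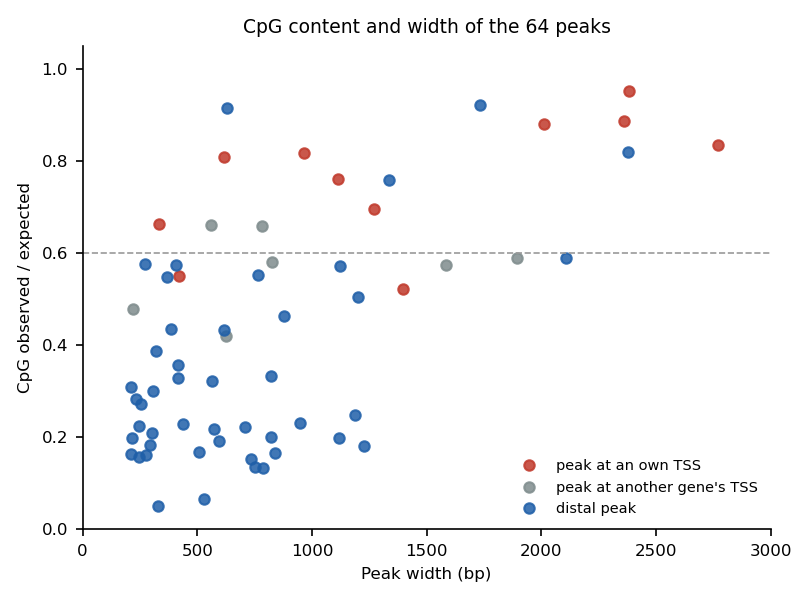
Ratio of observed to expected CpG (vertical axis) against width in bp (horizontal axis) for the 64 peaks, with own TSS peaks in red, peaks at the TSS of another gene in grey and distal peaks in blue, and a dashed line at 0.6. Distal peaks lie mostly below the line, and the 4 above it are those at Foxd3 (2), inside Pou3f1 and over Zic5.

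Motifs were counted in the 300 bases around the centre of each distal peak, on both strands, beside the share of all distal peaks with the same match. A match describes the sequence and does not show binding, and a missing match shows only that these letters were not in the window. The composite OCT4::SOX2 motif with at most 3 mismatches was in 0 of 46 peaks (Wilson 95% interval 0 to 7.71%) and in 1.51% of all distal peaks, so the share of all lay within the interval. The octamer ATGCAAAT was in 1 peak, at Sox4 -27.16 kb (2.17%, against 2.05% of all). The SOX core CCATTGT was in 2 peaks, at Otx2 -27.39 kb, outside the printed bases, and at Pou3f1 -42.45 kb (4.35%, against 6.74%).

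Motifs named for the families of the group itself were searched too. The OTX core TAATCC was in 5 peaks (10.9%, against 9.05% of all), of which 3 were upstream of Foxd3 at -10.83, -19.70 and -29.88 kb, and the others near Zic2 and Sox4. In the 11 peaks at own TSSs, OTX was in 1, at Otx2, against 5.28% of all peaks within 1 kb of a TSS, and ZIC in 1, at Sox11, against 13.3%. The ZIC core CCTGCTG was in 5 peaks (10.9%, against 12.7%), near Fgf5, Otx2, Foxd3 and, with 2, Pou3f1. The FOX core TGTTTAC was in 5 peaks (10.9%, 4.73 to 23.0%, against 4.75% of all), near Fgf5, Pou3f1, Sox4 and, with 2, Zic2. The interval for FOX just included the share of all distal peaks.

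The Fgf5 peak at +1.60 kb held ZIC matches, outside the printed bases, and a FOX match, and both kinds were also in the Pou3f1 peak at -23.39 kb. These were the 2 peaks with more than 1 kind of motif. Another 15 peaks held 1 kind, and 29 held none of the 8 searched. The TCF/LEF core CTTTGAT was in 0 of 46 peaks (0 to 7.71%, against 5.52%). The CTCF motif with at most 1 mismatch was in 1 peak, at Pou3f1 -25.16 kb (2.17%, 0.385 to 11.3%), against 12.9% of all distal peaks, which lay above the interval. In whole peaks, which were wider near these genes than over all distal peaks, CTCF was in 3 (6.52%, 2.24 to 17.5%). The share over all was 16.1%, which lay within that interval. Neither the 2 other Fgf5 peaks nor the 2 Sox11 peaks held any of the 8 motifs in the scanned bases.

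For context, the same counts were taken for 3 other lists. Of 16 other primed or formative genes, 15 had a TSS peak, the exception by the distance rule being Zic5. Their median was 7.5 distal peaks, from 0 at Sox3 to 20 at Dnmt3a, a de novo DNA methyltransferase, and their median TSS peak width was 1740 bp. All 12 naive pluripotency genes had a TSS peak, with a median of 14 distal peaks, from 2 at Nr0b1 to 26 at Esrrb, a nuclear receptor of the naive network, and a median TSS peak width of 1406.5 bp. None of 8 tissue genes such as Alb and Ins2 had a TSS peak, and they had between 2 and 10 distal peaks with a median of 2.5. No difference between lists was tested. The ranges of the lists overlapped, and Sox11 and Fgf5, with 2 and 3, were at the low end of the naive list as well.

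**Figure D5:**
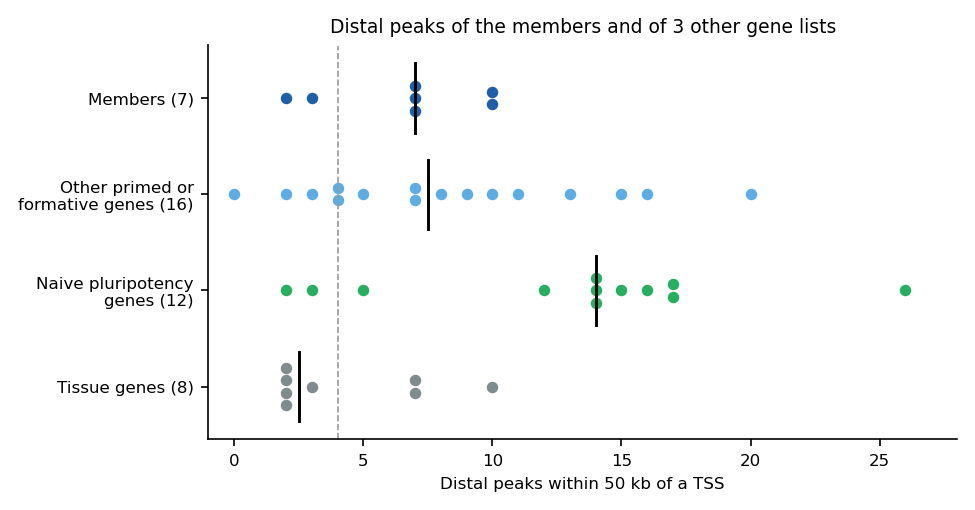
Distal peaks counted within 50 kb of a TSS (horizontal axis), for each gene (point) of the 7 primed genes and of 3 other lists, with a black bar at the median of each list and a dashed line at the median of 4 over all protein-coding genes. The medians are 7, 7.5, 14 and 2.5 from top to bottom, and the lists overlap.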

How the data were processed

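The authors aligned the reads to GRCm38 with STAR 2.6.1c, removed duplicates with Picard, called peaks with MACS2 2.1.1.20160309 in paired-end mode and joined the peaks of all dox-treated OCT4-AID experiments with BEDTools. Whether peaks were called per library or on pooled replicates was not given in the sources used here. The deposited list holds positions only (chromosome, start and end in bp), without any score, count or signal. The study's methods describe removal of regions above 5 kb, but 11 remained in this list, 0 of them near these genes.

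Positions were compared with GENCODE M21 and the GRCm38.p6 sequence (RefSeq) and are given 1-based. A TSS peak had its centre within 1 kb of a TSS. Consensus motifs were matched on both strands in 300 bases. Lists comprised 16, 12 and 8 genes, and peaks to be named were all those of Fgf5 and, for the others, TSS peaks and the nearest and widest distal peaks. Further peaks were named after their values were seen. The members and lists were chosen with earlier results of these data known. No value belonged to a sample, so no test was made. Python 3.11.15, numpy 2.4.6, pandas 2.3.3, pysam 0.24.0 and matplotlib 3.10.9 were used, and the counting was tested on simulated data.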

Additional observations from a re-analysis of the deposited data

How the results depend on the processing

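Of 136 alternative values for 23 results, 109 moved by at most 1.5 times (counts), by less than 1 SD over genes or peaks (medians) or stayed within their interval (shares), and 27 did not. Leaving out regions under 200 bp or above 5 kb is not counted, since no peak near these genes had such a width. With a 500 bp limit for a TSS peak, 5 of the 7 genes had one and its median width fell from 2012 to 1397 bp. Both changes count among the 109, because the bounds are wide, 1 SD being 676 bp for this width. A 2500 bp limit, overlap by any base, coding TSSs alone and omission of each gene in turn stayed within those bounds, although with 2500 bp the distal peaks of Fgf5 went from 3 to 2, at the bound itself. So did 2 settings chosen after seeing the data, peaks with a TSS inside not counted as distal and TSS peaks taken as those that hold the TSS. For the counts, omission of a gene could not have failed, since the median stays at 7 and the total falls at most from 46 to 36. These omission values are still among the 109. The window decided the counts. With 25 kb there were 37 peaks, 21 of them distal, with a median of 3 a gene and the gene closest for 85.7%. Sox11 then had 0 distal peaks and Otx2 1. With 100 kb there were 104 peaks, 70 distal and a median of 11.

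Motif counts depended on the bases scanned, in all distal peaks as well. In whole peaks OCT was in 2 of 46 (4.35%, against 3.05% of all distal peaks), SOX in 4 (8.70%, 9.52%), OTX in 10 (21.7%, 14.1%), ZIC in 9 (19.6%, 18.5%), FOX in 5 (10.9%, 7.35%), CTCF in 3 (6.52%, 16.1%), OCT4::SOX2 in 0 (2.36% of all) and TCF/LEF in 0 (8.55% of all). The last share lay above the Wilson limit of 7.71% for 0 of 46, and the others lay within their intervals. Whole peaks are of unlike length, with a median of 568 bp near these genes against 380 bp over all distal peaks. The whole-peak shares are therefore not over equal numbers of bases. In the central 150 bases SOX was in 1 (2.17%, 3.61%), OTX in 0 (4.44% of all), ZIC in 3 (6.52%, 6.68%) and FOX in 3 (6.52%, 2.42%). CTCF was in 1 (2.17%, 6.58%), within its interval. With up to 4 mismatches OCT4::SOX2 was in 3 (6.52%, 9.20%), and with no mismatch CTCF was in 0 (3.80% of all). No paired analysis was possible because the list carries no sample and the results come from no test.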

Other observations

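The 50 kb window captured very different shares of the space around each gene. Between the flanking coding TSSs, a limit chosen after the data had been seen, Sox4 had 1217.1 kb to itself with 52 distal peaks, 45 of them beyond 50 kb. Sox11 had 2042.8 kb with 18 distal peaks, 16 of them beyond 50 kb. Per 100 kb this was 4.27 for Sox4 and 0.881 for Sox11, beside a median of 3.58 over the 19 autosomes. Foxd3 had 31 in 419.8 kb (7.39 per 100 kb) and Otx2 had 17 in 513.8 kb (3.31 per 100 kb). Fgf5 had 4 in 148.3 kb between Prdm8 and Cfap299 (2.70 per 100 kb). Zic2 and Pou3f1 had little space of their own, 24.9 kb with 3 distal peaks and 82.7 kb with 8, and with 12.04 and 9.67 per 100 kb they had the highest densities of the 7.

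The surroundings differed as well. In the 1 Mb to either side, outside the window, Sox11 had 0.842 distal peaks per 100 kb and 2 inside the window, so that its 2 distal peaks lay in a sparse region. Zic2 had 6.54 outside and 6.82 inside. Foxd3 had 4.63 outside and 10 inside, Pou3f1 4.53 and 10, Sox4 2.95 and 7, Otx2 2.91 and 6.26, and Fgf5 2.79 and 2.99. These are densities of listed regions without a test, and gene density, depth and mappability were not examined beside them. The same pair of densities is not given for coding genes in general, so the differences cannot be read as particular to these genes.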
